A study of Mus musculus with 48 samples.

Results

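The 58 genes described here encode RNA-binding splicing factors of 3 families expressed in mouse kidney, 10 serine/arginine-rich (SR) proteins, 19 heterogeneous nuclear ribonucleoproteins (hnRNPs) and 29 RNA-binding motif (RBM) proteins. They were taken from the gene symbols beginning with Hnrnp, or with Srsf or Rbm followed by a number, without Rbm3, among the 12423 genes listed in both assays, and all 58 reached a median of at least 0.5 RPKM (mapped reads scaled to the length of the coding sequence and to the size of the library) in both. The same minimum left 11863 genes for testing. A further 3 symbols of the same form were listed in a single assay and are not members, namely Hnrnpa0 and Rbm15b in RNA-seq and Rbm4 in RPF-seq.

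Splicing removes introns from the primary transcript, and SR and hnRNP proteins bind exons and introns to promote or block the use of nearby splice sites. SR proteins mostly favour the inclusion of an exon and many hnRNPs counteract them, while hnRNPs also package the transcript and take part in its export, stability and translation. The RBM genes share an RNA recognition motif in their name and are a mixed group, with spliceosome subunits, splicing regulators and proteins of other steps of RNA metabolism.

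The kidneys came from male C57BL/6JRj mice aged 11 to 12 weeks that had been kept for 2 weeks in 12 h of light and 12 h of dark with no further treatment or genetic change. Animals were sacrificed every 2 h for 2 daily cycles, from Zeitgeber time (ZT) 0, when lights went on, to ZT22, with lights off at ZT12. The sample labels do not say whether a replicate number stands for a cycle. Each of the 12 timepoints had 2 replicate pools of whole kidneys from 2 animals, and each of the 24 pools gave an RNA-seq library and a library of ribosome-protected fragments (RPF-seq, sequencing of the pieces of mRNA that cycloheximide-stopped ribosomes shield from RNase I). RNA therefore stands for transcript abundance, RPF for ribosome occupancy of the coding sequence, and translation efficiency (TE) for the ratio RPF/RNA in the same pool.

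The question put to each member was whether its RNA, RPF or TE followed a 24-h curve. A cosine was fitted across all tested genes with limma on log2(RPKM + 0.1), and a member was called rhythmic where the Benjamini-Hochberg adjusted p of the F test (FDR) was under 0.05 and the fitted curve rose at least 1.5-fold from trough to peak. Fold changes are on this scale and understate those of genes near 0.1 RPKM. The libraries were whole kidney, with Umod, the abundant protein of the thick ascending limb, at a median of 2534 RPKM and Slc34a1, the phosphate carrier of the proximal tubule, at 2352 RPKM in RNA, and in whole tissue a shift in cell types cannot be told apart from a change in RNA per cell. The endothelial marker Pecam1 stood at 34.5 RPKM and the leukocyte marker Ptprc at 5.48 RPKM. Relative depth ranged from 0.598 to 2.04 over the RNA libraries and from 0.701 to 1.58 over the RPF libraries, with the light-phase libraries deeper (median 1.14 against 0.812 in RNA and 1.18 against 0.910 in RPF). The clock genes peaked in order, with RNA of Nr1d1 at ZT7.5, Dbp at ZT10.5 and Per2 at ZT14.7.

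The 4 sequences given here belong to members whose RNA or TE followed the day and whose promoter holds the letters CACGTG (an E-box, the element bound by the CLOCK:BMAL1 dimer) or the variant CACGTT. They were read 5′ to 3′ on the gene's strand from the RefSeq promoters of GRCm38.p6, which run from 250 bases before to 50 bases after a transcription start, with the motif in capitals:
Hnrnpa3, chr2:75659229-75659258, plus strand: cggatagcacatCACGTGgtgactggcccc
Hnrnpd, chr5:99978953-99978982, minus strand: gcgctccggagcCACGTGaccgggacgcgc
Hnrnpm, chr17:33685428-33685457, minus strand: gtcgttcggggtCACGTGagcgcgcaggcg
Hnrnpa1, chr15:103240423-103240446, plus strand: taggctggcgggCACGTTcgttat
The motif began 18 bases before the annotated start in Hnrnpa3 and 32 bases before it in Hnrnpd, and at base 14 and base 39 after it in Hnrnpm and Hnrnpa1.

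Promoters were found for 51 of the 58 members, and both strands were searched. CACGTG stood in 7 of the 51 members (13.7%), Hnrnpa3, Hnrnpd, Hnrnpf, Hnrnph2, Hnrnpm, Rbm19 and Rbm43, against 8.09% of the 27025 genes with a promoter. Of these 7, Hnrnpf, Hnrnph2, Rbm19 and Rbm43 were called in none of RNA, RPF and TE. CACGTT was found in 3.92% of the members and 5.44% of all genes, the D-box letters TTATGTAA or TTATGCAA in 1.96% and 1.98%, GAANNTTC (the core of a heat shock element) in 9.80% and 9.04%, and AGGTCA (a nuclear receptor site) in 13.7% and 18.1%. TGACGTCA, the cAMP response element, was in none of the 51 windows and in 2.03% of all genes. These are matches of letters and not measured binding.

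Members spanned a wide range of transcript levels. RPKM is per length of coding sequence, so levels can be set side by side between genes. The highest RNA means over the 24 libraries were those of Hnrnpk (278 ± 21.2 RPKM, SD), a poly(C)-binding hnRNP, and Rbm47 (228 ± 31.0), an RNA-binding cofactor of APOBEC1 editing. They were followed by Hnrnpf (197 ± 14.7), which binds G-rich runs, Hnrnpa2b1 (184 ± 44.5), a core hnRNP, and Srsf5 (158 ± 33.6), an SR protein. In this order only Hnrnpk stood apart from its neighbour by more than the SD of both.

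At the low end stood Rbm12b1 (1.13 ± 0.288 RPKM), Rbm12 (1.76 ± 0.383), Rbm20 (2.14 ± 0.241), the splicing regulator of titin in heart, Rbm11 (2.27 ± 0.538) and Rbm12b2 (3.02 ± 0.747). The family medians were 54.9 RPKM for the hnRNPs, 40.8 for the SR genes and 13.0 for the RBM genes, beside 16.5 over all tested genes. The low members rest on few reads, since Rbm12b1 and Rbm38 had as few as 7 in an RPF library by the whole-number steps of their RPKM values.

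In RNA, 8 of the 58 members (13.8%) were called rhythmic, beside 10.2% of all tested genes. They were Hnrnpd, Hnrnpa1, Hnrnph3, Hnrnpa3, Hnrnpl, Rbm12b1, Rbm12b2 and Rbm14, that is 5 of 19 hnRNPs, 3 of 29 RBM genes and 0 of 10 SR genes. With no fold cutoff, 33 members (56.9%) had an FDR under 0.05, 13 hnRNPs, 13 RBM genes and 7 SR genes, beside 48.6% of all genes. The median fold was 1.26 over the members and 1.20 over all genes.

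In RPF, 7 of the 58 members (12.1%) were called, beside 7.58% of all genes. They were Rbm12b1, Hnrnpdl, Srsf5, Rbm12b2, Rbm5, Rbm14 and Hnrnpd, and 4 of them, Hnrnpd, Rbm12b1, Rbm12b2 and Rbm14, were also called in RNA. An FDR under 0.05 at any fold was reached by 29 members (50%), beside 30.9% of all genes, and the median fold was 1.20 against 1.18. In all, 12 members were called in RNA, RPF or TE, and 18 had an FDR of 0.05 or more in all 3. No share over all genes was computed for these combined counts, so they only describe the members.

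**Figure D1:**
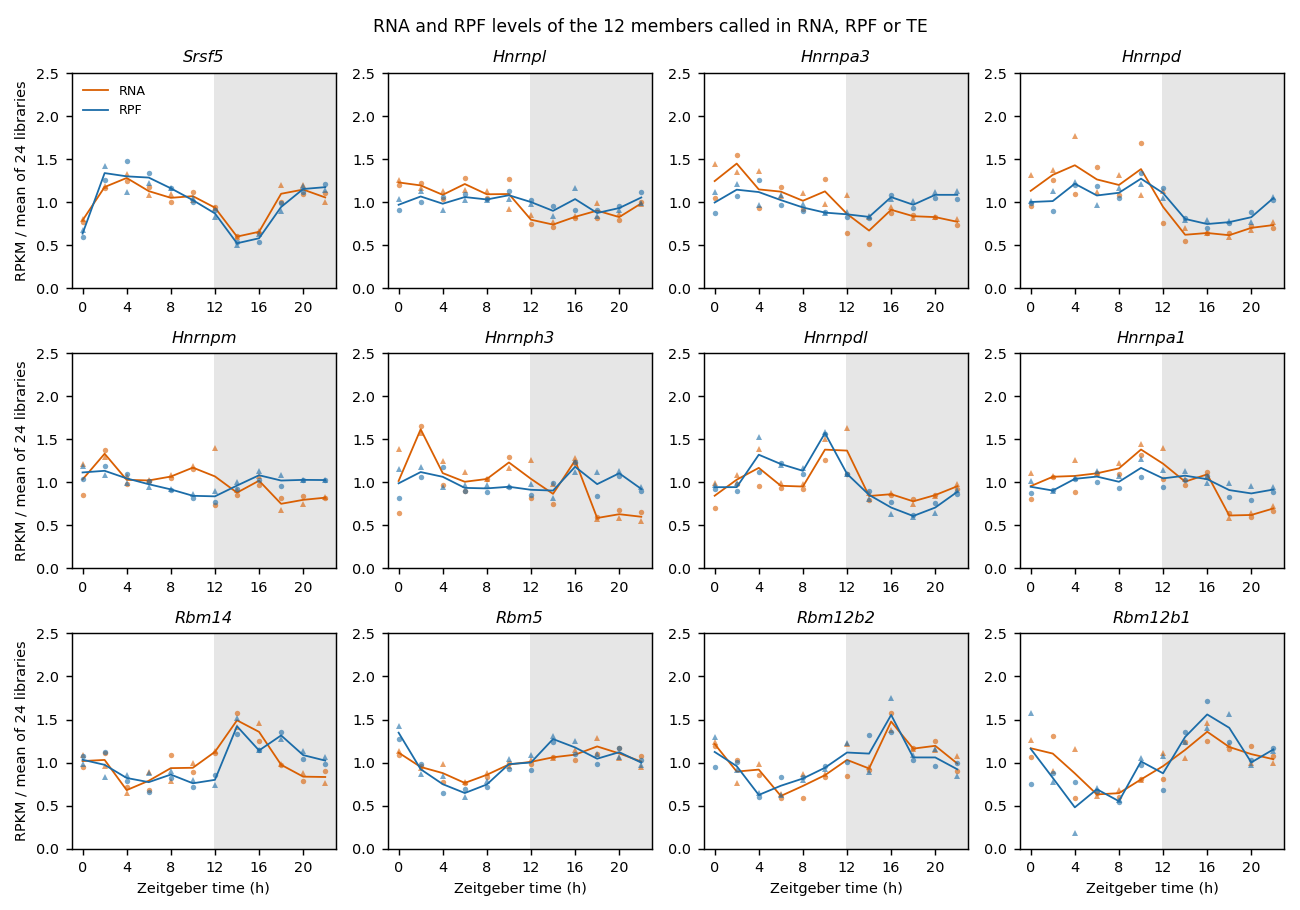
RNA (orange) and RPF (blue) of the 12 members called in RNA, RPF or TE, by Zeitgeber time in h, as RPKM divided by the gene's mean over its 24 libraries. Circles and triangles are the replicate 1 and 2 pools, lines join the means of the 2 pools, and grey marks the dark phase. Hnrnpd RNA is high through the light phase, Srsf5 dips at ZT14 and ZT16 in both assays, and RNA of Hnrnpa1 and Hnrnph3 is low at ZT18 to ZT22, where RPF of Hnrnpa1 lies closer to its mean (71.2 to 89.0 RPKM) and RPF of Hnrnph3 does not show the step.

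Among the hnRNPs, Hnrnpd had the largest RNA rhythm of all members. Its product, also called AUF1, binds AU-rich elements and influences mRNA decay, and the gene lies on chromosome 5 (99955935 to 99978938, minus strand, GRCm38). In RNA the 12 light-phase libraries (ZT0 to ZT10) held 25.9, 35 and 48.0 RPKM (lowest, median, highest) and the 12 dark-phase libraries 14.9, 18.7 and 30.7 RPKM. The phases overlapped only through a ZT12 pool at 30.7 RPKM and the lower light-phase pools, and the 10 libraries from ZT14 to ZT22 all lay below every light-phase library. The fitted fold was 2.34 (log2 1.23 ± 0.14, SE, FDR 6.61e-07) with a peak at ZT5.4 ± 0.43 h.

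The ribosome occupancy of Hnrnpd followed the same hours with a smaller range. RPF was 60.3, 77.4 and 90.4 RPKM in the light phase and 47.0, 54.3 and 78.3 RPKM in the dark phase. Its fold of 1.5 (log2 0.59 ± 0.10, FDR 0.000202, peak ZT5.9 ± 0.62 h) was, among members with an FDR under 0.05, the value just over the cutoff, with Rbm28 at 1.40 just under it, and the call was lost in 16 of 39 alternatives, most of them leaving out 1 pool.

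Hnrnpa1, the archetypal shuttling hnRNP that binds exonic silencers, lies on chromosome 15 (103240432 to 103246692, plus strand). Its RNA was 44.3, 60.7 and 79.6 RPKM in the light phase and 32.0, 46.7 and 76.8 RPKM in the dark phase. The 6 libraries of ZT18, ZT20 and ZT22 held 32.0 to 39.9 RPKM and all 18 others held at least 44.3 RPKM, so the low values came as a step between ZT16 (61.8 and 58.4 RPKM) and ZT18 (35.6 and 32.0 RPKM). The cosine gave a fold of 1.85 (log2 0.89 ± 0.13, FDR 2.16e-05, peak ZT8.5 ± 0.55 h). RPF of Hnrnpa1 changed less, from 79.4, 92.5 and 115 RPKM in the light phase to 71.2, 87.5 and 103 RPKM in the dark phase, with a fold of 1.23 (FDR 0.00732).

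Hnrnph3, a member of the H/F group that binds G-rich sequence, showed the same step. Its RNA stood at 15.8 and 16.6 RPKM at ZT16 and at 7.67 and 7.49 RPKM at ZT18, and stayed between 7.11 and 8.78 RPKM to ZT22. The light-phase libraries held 8.35, 14.8 and 21.4 RPKM. The fold was 1.70 (log2 0.76 ± 0.22, FDR 0.0191, peak ZT7.1 ± 1.1 h), while RPF did not pass the test (fold 1.11, FDR 0.470).

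Because 3 timepoints carried these low values, the fit was repeated without ZT18, ZT20 and ZT22, a choice made after the values were seen that by construction removes most of the low RNA libraries. The Hnrnpa1 RNA fold then was 1.32 (FDR 0.0715) and that of Hnrnph3 1.15 with a peak at ZT0.48 (FDR 0.710), while Hnrnpd kept a fold of 2.27 (FDR 0.000349) and Hnrnpl one of 1.56 (FDR 0.000164). Over the hnRNP family, 17 of 19 members lay below their own mean RNA at ZT18, 16 at ZT20 and 14 at ZT22, and 17 did so at ZT14 as well. The RNA libraries of ZT18, ZT20 and ZT22 were shallow, with relative depths of 0.598 to 0.832 beside 0.598 to 2.04 over all RNA libraries. Replicate 1 of ZT14 (0.756) and of ZT10 (0.787) fell in the same range. Whether depth or anything else beyond the hour bears on these low values was not tested.

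Hnrnpl and Hnrnpa3 peaked earlier in the light phase. RNA of Hnrnpl, which binds CA repeats, was 82.8, 104 and 114 RPKM in the light phase and 63.4, 74.4 and 89.5 RPKM in the dark phase (fold 1.54, log2 0.63 ± 0.08, FDR 9.36e-06, peak ZT3.6 ± 0.52 h). The phases overlapped only in a narrow band, and its RPF fold was 1.12 (FDR 0.186). RNA of Hnrnpa3, an A/B-type hnRNP, was 18.7, 23 and 31.2 RPKM in the light phase and 10.3, 16.7 and 22 RPKM in the dark phase (fold 1.62, FDR 0.00251, peak ZT3.9 ± 0.85 h). Its RPF fold was 1.26 (FDR 0.00509, peak ZT0.12 ± 0.86 h).

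Hnrnpdl, the close relative of Hnrnpd on the same chromosome (5, 100033577 to 100039664, minus strand), was the only hnRNP with an FDR under 0.05 in RNA whose RPF fold exceeded its RNA fold. Its RPF was 19.9, 25.3 and 35 RPKM in the light phase and 13.3, 17.5 and 24.4 RPKM in the dark phase. The highest timepoint was ZT10, with 34.5 and 35 RPKM, and the lowest ZT18, with 13.6 and 13.3 RPKM. The RPF fold was 1.96 (log2 0.97 ± 0.11, FDR 2.65e-06, peak ZT6.9 ± 0.45 h), beside an RNA fold of 1.39 (FDR 0.0196, peak ZT8.2 ± 1.1 h), and this call held in every alternative tried.

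Replicate pools differed in hnRNP RNA at some timepoints. Replicate 2 minus replicate 1 had a median over the 19 hnRNPs of 0.33 on the log2 scale at ZT0, 0.31 at ZT4 and 0.43 at ZT12 in RNA, when the median over all genes was -0.03 at ZT12 and nearer 0 at the others, and of 0.19, -0.02 and 0.09 in RPF. Hnrnpa2b1 illustrates it, with 161 and 243 RPKM at ZT0, 169 and 234 RPKM at ZT4 and 145 and 267 RPKM at ZT12. Its RNA fold of 1.39 had an FDR of 0.0494. The fit was repeated without those 3 timepoints, a choice made after seeing the data. Of the 58 members, 11 were then called in RNA, 7 in RPF and 5 in TE, beside 11.5%, 7.60% and 3.66% of all genes. The part of this replicate difference in the hnRNP results was not tested beyond that.

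**Figure D2:**
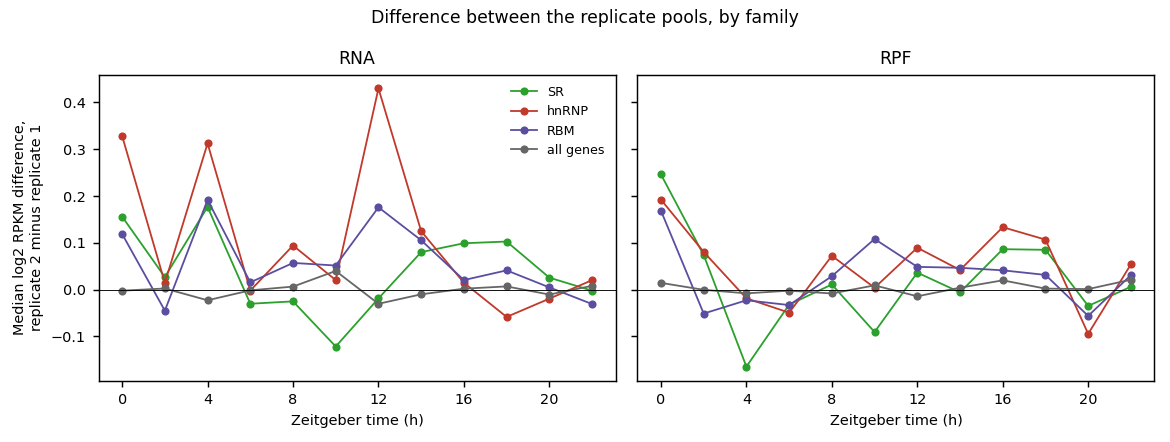
Median over a family's members of the log2 RPKM difference between the replicate 2 and replicate 1 pool of a timepoint, by Zeitgeber time in h, for RNA (left) and RPF (right), with all tested genes in grey. The hnRNP line reaches 0.33, 0.31 and 0.43 at ZT0, ZT4 and ZT12 in RNA, and all genes stay near 0.

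Among the SR genes, Srsf5 had the largest rhythm, in RPF. SRSF5 is an SR protein known from liver cells as the product of an insulin-responsive gene, and the gene lies on chromosome 12 (80945504 to 80950507, plus strand). RPF was 124, 243 and 311 RPKM in the light phase and 106, 190 and 253 RPKM in the dark phase. The low libraries were those of ZT14 (113 and 106 RPKM), ZT16 (112 and 132 RPKM) and ZT0 (124 and 142 RPKM), and all others held 173 RPKM or more, so the profile had 2 dips rather than a single trough. The fold was 1.78 (log2 0.83 ± 0.20, FDR 0.00865, peak ZT3.6 ± 0.92 h).

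Srsf5 RNA had the same shape, with 94.6 to 106 RPKM at ZT14 and ZT16 and 122 and 128 RPKM at ZT0. Its fold of 1.48 (FDR 0.0114, peak ZT3.2 ± 1.0 h) was, among members with an FDR under 0.05, the value just under the RNA cutoff, and Rbm14 at 1.51 was just over it. The other SR genes with an FDR under 0.05 in RNA were Srsf4 (fold 1.47, ZT7.2), Srsf2 (1.36, ZT9.7) and Srsf9 (1.18, ZT6.8) in the light phase and Srsf10 (1.46, ZT20.2), Srsf6 (1.35, ZT20.7) and Srsf7 (1.33, ZT17.4) in the dark phase. Srsf6 showed it tightly, with 102 and 106 RPKM at ZT18 and 74.0 and 74.7 RPKM at ZT12. Srsf1, Srsf3 and Srsf11 had RNA folds of 1.11, 1.04 and 1.07 and did not pass the test.

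The RBM genes called had fitted peaks in the dark phase, though the highest timepoint of Rbm5 in RPF was ZT0. RNA of Rbm12b2 was 1.77, 2.59 and 3.74 RPKM in the light phase and 2.56, 3.47 and 4.75 RPKM in the dark phase (fold 1.68, log2 0.75 ± 0.14, FDR 0.000374, peak ZT18.7 ± 0.70 h), and its RPF fold was 1.62 (FDR 0.00258, peak ZT16.8 ± 0.80 h). The related Rbm12b1 had an RNA fold of 1.68 (FDR 0.00125) and the largest RPF fold of the members, 2.2 (log2 1.13 ± 0.23, FDR 0.00214, peak ZT17.4 ± 0.78 h). Its RPF ranged from 0.143 to 1.36 RPKM, and the lowest value, in a ZT4 pool, rested on 7 reads.

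Rbm12b1 and Rbm12b2 lie close together on chromosome 4 (12140264 to 12146731 and 12089439 to 12096243, both plus strand) and are near-identical copies. Of the 30-base stretches of the Rbm12b1 coding sequence, 73.9% also occur in Rbm12b2, so their separate levels are uncertain and the 2 calls are not independent. Both were lost with a pseudocount of 1, which weighs on low genes.

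Rbm5, a spliceosomal regulator of apoptotic splice choices on chromosome 9 (107740371 to 107770996, minus strand), had RPF of 15.0, 21.3 and 35.5 RPKM in the light phase and 22.8, 27.2 and 32.5 RPKM in the dark phase. ZT6 was lowest at 17.1 and 15.0 RPKM and ZT0 highest at 31.6 and 35.5 RPKM. Its RPF fold was 1.59 (log2 0.67 ± 0.13, FDR 0.00101, peak ZT18.0 ± 0.72 h) and its RNA fold 1.36 (FDR 5.25e-05, peak ZT18.2 ± 0.59 h). Its paralogues Rbm10 and Rbm6 had RNA folds of 1.10 and 1.13 and did not pass.

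Rbm14, a paraspeckle protein on chromosome 19 (4800569 to 4811634, minus strand), rose sharply at ZT14 in both assays. RNA stood at 12.0 and 10.8 RPKM at ZT14 and 5.48 and 4.89 RPKM at ZT4, and RPF at 14.8 and 17.0 RPKM at ZT14 and 8.06 and 8.91 RPKM at ZT10. RPF then stayed at 11.0 RPKM or more to ZT22 when RNA had fallen to 6.90 and 5.80 RPKM. The folds were 1.51 in RNA (FDR 0.00461, peak ZT14.8 ± 0.91 h) and 1.58 in RPF (FDR 0.000507, peak ZT18.4 ± 0.67 h), and the RNA call was lost in 11 of 39 alternatives.

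Further RBM genes with an FDR under 0.05 in RNA at a smaller fold were Rbm39, a U2AF-related coactivator (1.34, ZT21.4), Rbm4b (1.3, ZT17.7), Rbm7, of the nuclear exosome targeting complex (1.22, ZT18.1), Rbm45 (1.26, ZT23.0), Rbm43 (1.31, ZT23.9) and Rbm26 (1.20, ZT19.5) in the dark phase. Those in the light phase were Rbm20 (1.26, ZT8.6), Rbm47 (1.23, ZT9.3) and Rbm28, a nucleolar protein, with an RNA fold of 1.24 at ZT2.7 and an RPF fold of 1.40 at ZT2.8. Rbm8a, of the exon junction complex, Rbm17 and Rbm25 had folds of 1.03 to 1.13 in RNA and RPF and did not pass in either.

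**Figure D3:**
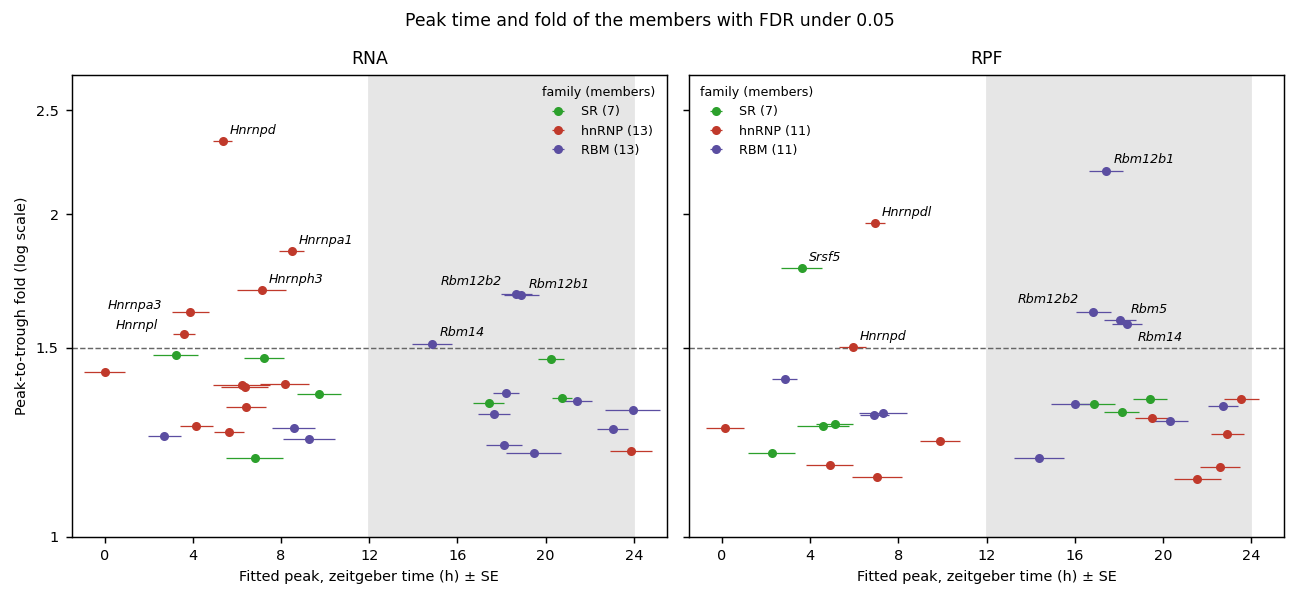
Peak-to-trough fold (log axis) against fitted peak time in h (bars, SE) for the members with an FDR under 0.05 in RNA (left) and RPF (right), coloured by family, with grey for the dark phase and a dashed line at the 1.5-fold cutoff. In RNA 12 of 13 hnRNPs peak between ZT0 and ZT12 and 10 of 13 RBM genes between ZT12 and ZT24.

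The fitted peaks were counted by phase of the day. Of the members with an FDR under 0.05 in RNA, 12 of 13 hnRNPs peaked in the light phase, 4 of 7 SR genes and 3 of 13 RBM genes, beside 53.3% of all genes passing. Hnrnpc (ZT0.001) and Hnrnpll (ZT23.9), counted on either side, both lay at the boundary. In RPF the light-phase counts were 6 of 11 hnRNPs, 4 of 7 SR genes and 3 of 11 RBM genes, beside 56.1% of all genes. These counts are descriptions and no difference between the families was tested.

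The fitted fold was smaller in RPF than in RNA in 34 of the 58 members (58.6%), close to the 56.5% of all genes, that is in 14 of 19 hnRNPs, 6 of 10 SR genes and 14 of 29 RBM genes. Among the 33 members with an FDR under 0.05 in RNA, a choice that by itself favours a large RNA fold, it was 26 (78.8%), beside 75.9% of all genes so chosen. Of the 22 members passing in both assays, 15 (68.2%) peaked within 2 h in RNA and RPF, against 67.6% of all genes. RPF led by more than 2 h in Hnrnpm (7.4 ± 1.3 h), Srsf2 (5.2 ± 1.5 h), Srsf4 (5.0 ± 1.4 h), Hnrnpa3 (3.8 ± 1.2 h) and Srsf10 (2.1 ± 1.0 h), and trailed in Rbm47 (5.1 ± 1.6 h) and Rbm14 (3.5 ± 1.1 h).

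TE tests whether RPF and RNA follow different curves, since it is the difference of their log2 values within a pool. Here 4 of the 58 members (6.90%) were called, beside 3.74% of all genes, and all 4 were hnRNPs, Hnrnph3, Hnrnpd, Hnrnpm and Hnrnpa1. With no fold cutoff 13 members (22.4%) had an FDR under 0.05, 7 hnRNPs, 3 SR and 3 RBM genes, beside 17.1% of all genes. The median TE fold was 1.17 over the members and 1.19 over all genes. Of the 7 hnRNPs, 6 had their TE peak in the dark phase, beside 47.3% of all genes passing.

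In Hnrnph3 TE was 1.25, 1.64 and 2.48 in the light phase and 1.51, 2.64 and 3.79 in the dark phase. The 6 pools of ZT18 to ZT22 held 2.71 to 3.79 and all 18 others 2.58 or less. The fold was 1.84 (log2 0.88 ± 0.20, FDR 0.0119, peak ZT19.6 ± 0.85 h). In Hnrnpa1 the same 6 pools held 2.11 to 2.78 and the others 1.90 or less, with a fold of 1.54 (FDR 0.00518, peak ZT19.8 ± 0.74 h), the value just over the cutoff among members with an FDR under 0.05, and Rbm14 at 1.48 just under it.

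Hnrnpm binds GU-rich sequence and lies on chromosome 17 (33646233 to 33686860, minus strand). Its RNA was 33.6, 42.7 and 54.4 RPKM in the light phase and 26.8, 33.0 and 55.3 RPKM in the dark phase (fold 1.38, peak ZT6.4 ± 1.1 h), and its RPF was lowest at ZT12 (61.2 and 70.8 RPKM) with a peak at ZT22.9 ± 0.76 h. TE was 1.42, 1.78 and 2.43 in the light phase and 1.28, 2.25 and 3.19 in the dark phase, where the lowest value belonged to a ZT12 pool (fold 1.57, log2 0.65 ± 0.12, FDR 0.00400, peak ZT20.2 ± 0.71 h).

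In Hnrnpd TE was 1.73, 2.12 and 2.77 in the light phase and 2.31, 3.06 and 3.77 in the dark phase (fold 1.57, FDR 0.0105, peak ZT16.8 ± 0.84 h). Its TE was thus high in the hours in which its RNA was low. Hnrnpdl had the opposite order, with TE of 1.02, 1.32 and 1.47 in the light phase and 0.745, 1.00 and 1.26 in the dark phase (fold 1.46, FDR 0.00876, peak ZT5.9 ± 0.81 h), under the fold cutoff.

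The other members with a TE FDR under 0.05 were Srsf4 (fold 1.46), Srsf2 (1.41), Hnrnpl (1.41), Hnrnpul2 (1.36), Rbm15 (1.3), of the m6A writer complex, Rbm47 (1.27) and Srsf11 (1.22), beside Rbm14. A TE value carries the error of both libraries and an RNA value lies in its denominator, so a low RNA library gives a high TE in the same pool. No member was called in TE with limma from replicate 1 pools alone, from replicate 2 pools alone or with 1 mean per timepoint. In that order, 0.0169%, 0% and 0.826% of all genes were called, so few calls were made in any gene. Among the 58 members, an unadjusted p under 0.05 in limma was found in 11, 11 and 23, beside 21.5%, 15.7% and 22.7% of all genes. Without ZT18, ZT20 and ZT22 the TE folds were 1.15 for Hnrnph3, 1.14 for Hnrnpa1, 1.40 for Hnrnpm and 1.52 for Hnrnpd (FDR 0.785, 0.598, 0.210 and 0.0544), and no member was called.

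**Figure D4:**
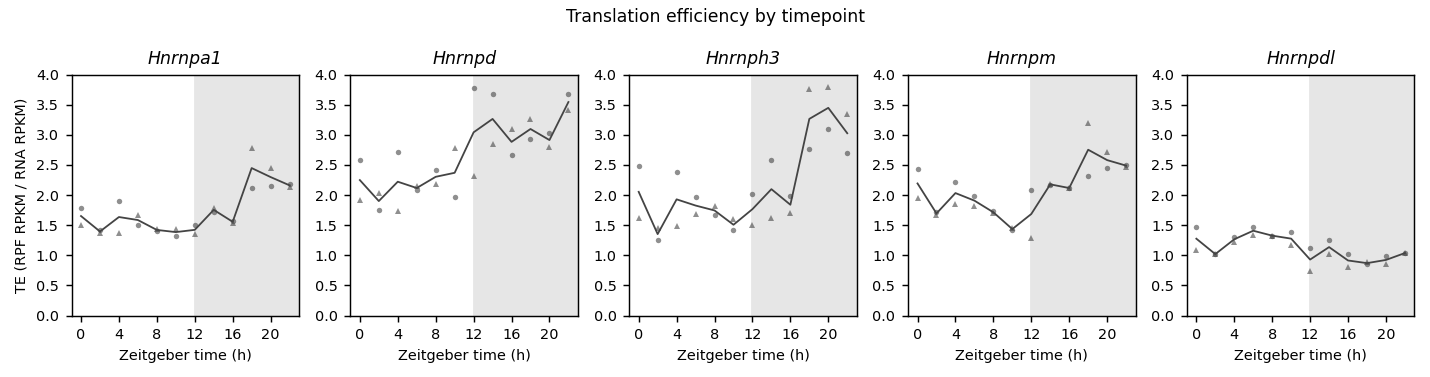
TE (RPF RPKM divided by RNA RPKM) by Zeitgeber time in h for the 4 members called in TE and for Hnrnpdl. Circles and triangles are replicate 1 and 2 pools, lines join their means, and grey marks the dark phase. TE of Hnrnpa1 and Hnrnph3 is highest at ZT18 to ZT22, and that of Hnrnpdl is higher in the light phase.

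Averaged over the day, 12 of the 19 hnRNPs had a TE at least 1.5-fold above that of the median gene. The level of a gene was its mean log2 TE relative to the median gene of each pool, and it was called where it differed from that median by at least 1.5-fold at an FDR under 0.05. By this rule 17 members (29.3%) lay above, beside 20.6% of all genes, and 8 (13.8%) lay below, beside 26.0% of all genes. Above were 12 of 19 hnRNPs, 4 of 29 RBM genes and 1 of 10 SR genes (Srsf1), and below were Hnrnpul1 and 7 RBM genes (24.1% of the 29, near the share of all genes). The family medians were 1.75 for the hnRNPs, 1.35 for the SR genes and 0.888 for the RBM genes, relative to the median gene.

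The highest level was that of Hnrnpa3 at 3.95-fold the median gene (log2 1.98 ± 0.06, SE), above 99.8% of all genes ranked. It was followed by Hnrnpd (2.73-fold), Hnrnpc (2.63-fold), which binds U-rich tracts, Hnrnpa2b1 (2.36-fold) and Hnrnph3 (2.15-fold). In raw ratios Hnrnpa3 held 2.55 to 5.88 RPF per RNA over the pools. Rbm8a at 1.5-fold was just inside the upper cutoff.

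The lowest level was that of Rbm20 at 0.348 of the median gene (log2 -1.52 ± 0.05), followed by Rbm33 (0.395), Hnrnpul1 (0.453), a relative of the scaffold protein gene Hnrnpu, Rbm15 (0.453) and Rbm10 (0.528). Hnrnpu itself stood at 1.75 and the second relative, Hnrnpul2, at 0.999. Rbm17, Rbm6 and Rbm7 completed the 8 below the cutoff.

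**Figure D5:**
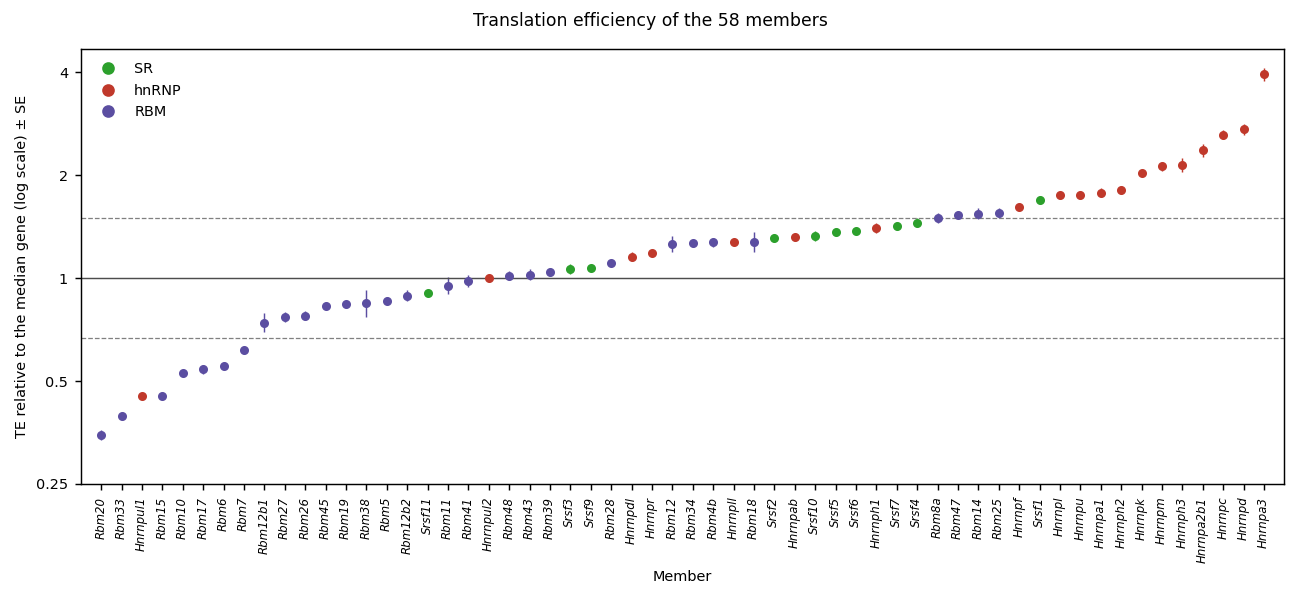
TE level of the 58 members relative to the median gene (log axis, 1 = median gene; bars, SE), sorted and coloured by family, with dashed lines at 1.5-fold above and below. Hnrnpa3 stands highest at 3.95 and Rbm20 lowest at 0.348, and the 11 highest members are hnRNPs.

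Short coding sequences went with high TE across genes. Spearman's rho between TE level and coding length was -0.41 over the 58 members and -0.40 over 11784 tested genes with a length, and within families it was -0.55 over 19 hnRNPs, -0.46 over 29 RBM genes and 0.27 over 10 SR genes. Genes are not independent replicates and these values are descriptions. The median coding length was 729 bases for the SR genes, 1347 for the hnRNPs and 2007 for the RBM genes, beside 1374 for all genes.

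Reads from processed copies add uncertainty for several members. The share of a gene's 30-base coding stretches that also occur in a transcript of another annotated gene was over 50% in 14 members and 0 in 26. It was 97.8% for Hnrnpf, 97.7% for Hnrnpa3, 94.0% for Srsf3, 83.6% for Hnrnpa1, 72.0% for Srsf5 and 22.9% for Hnrnpdl, but 2.31% for Hnrnpd, 1.28% for Hnrnph3 and 0 for Hnrnpm. RNA and RPF reads were kept over different length ranges and can be placed differently among copies. The part of this in the TE levels, among them those of Hnrnpa3, Hnrnpf, Hnrnpk, Hnrnpa1, Hnrnph2 and Hnrnpc, was not tested.

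The genes that act with these families were taken as 3 lists, and their counts called stand beside 10.2% of all genes in RNA, 7.58% in RPF and 3.74% in TE. Of 19 genes for SR protein kinases, SR-related proteins and their transport, 1 was called in RNA (Tra2a), 4 in RPF (Tra2a, Luc7l, Clk4 and Ddx46) and 2 in TE (Luc7l and Luc7l2). Tra2a, the SR-like activator, had folds of 1.91 in RNA and 2.19 in RPF with peaks at ZT18.9 and ZT18.2, in the dark phase. Clk4, a kinase that phosphorylates SR proteins, had an RPF fold of 1.64 at ZT17.6 and an RNA fold of 1.20 that did not pass.

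Of 33 other RNA-binding regulators of splicing, 6 were called in RNA, 4 in RPF and 2 in TE, beside 10.2%, 7.58% and 3.74% of all genes. Cirbp, the cold-inducible RNA-binding protein, had folds of 3.10 and 2.87 in RNA and RPF at ZT7.4 and ZT7.2. Of 36 tested genes of the spliceosome core, 1 was called in RNA (Snrpd3, fold 1.82 at ZT4.9), 0 in RPF and 2 in TE (Snrpd3 and Sf3b5). The shares of all genes are those just given. At any fold, 16, 9 and 11 of the 36 had an FDR under 0.05 in limma, beside the 48.6%, 30.9% and 17.1% of all genes. The median TE level of the 3 lists was 1.00, 1.22 and 1.3 relative to the median gene.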

How the data were processed

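Whole-kidney RNA-seq and RPF-seq libraries were analysed from 24 pools, 2 per timepoint. The deposited values are RPKM per gene, which the authors computed from reads mapped to coding sequences after upper quantile normalisation with edgeR, leaving out genes under an RPKM cutoff. The submitters' processing notes name cutadapt, Bowtie2 2.2.1, TopHat2 2.0.11 and Cufflinks 2.2.1 with mouse GRCm38.p2. Reads were kept by length, over a narrower range for RPF than for RNA. Counts and library totals were not used here. Relative depth came from the whole-number steps of low RPKM values (60 genes), and read numbers are the smallest that fit those steps. Monosome enrichment used size exclusion columns, and ribosomal RNA was depleted before library preparation.

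Values entered limma 3.58.1 (R 4.3.3, eBayes with trend) as log2(RPKM + 0.1), for 11863 genes with a median of at least 0.5 RPKM in both assays, with cosine and sine terms of a 24-h period. TE was the log2 difference of RPF and RNA of a pool, and TE levels were the fitted means after centring on the median gene. On simulated data, 79.0% of 1.5-fold and 97.0% of 2-fold RNA rhythms were recovered, and 70.0% and 93.0% of RPF rhythms. Peak errors are SEs by the delta method. The text names all members called, those with a TE FDR under 0.05, the 5 highest and 5 lowest in RNA level and TE level, those next to a cutoff and a set of landmark genes, of which some are not reported here. The members and lists were chosen with earlier results of these data known. Gene positions and coding lengths came from GENCODE vM21, promoters from RefSeq.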

Additional observations from a re-analysis of the deposited data

Results flagged for a closer look

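In 4 members the 24-h curve of RPF differed from that of RNA by the test of their ratio across the 24 pools (limma, FDR under 0.05 and at least 1.5-fold). The TE peak-to-trough folds were 1.84 in Hnrnph3, 1.57 in Hnrnpd, 1.57 in Hnrnpm and 1.54 in Hnrnpa1, with peaks at ZT19.6, ZT16.8, ZT20.2 and ZT19.8. RNA of these genes was highest in the light phase, and the RPF folds were 1.11, 1.5, 1.25 and 1.23. The check for a single sample far from the others of its group was not run on the 2 pools of a timepoint.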

How the results depend on the processing

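The counts of members called (8 in RNA, 7 in RPF and 4 in TE at 1.5-fold, 33, 29 and 13 at any fold, and TE levels of 17 above and 8 below the median gene) were recomputed under 40 alternatives, 3 of them chosen after seeing the data, of which 39 apply to each count of rhythmic members and 36 to the TE levels. The counts are out of 58 members, and shares of all genes under the same alternative follow in brackets. With a pseudocount of 1, 5 members were called in RNA (6.58%) and 4 in RPF (4.97%). A 24-h plus 12-h curve gave 16 in RNA (14.8%). With 1 mean per timepoint there were 19 in RNA (19.3%), 13 in RPF (9.54%), 17 at any fold in RPF (12.8%), and 0 in TE with or without the fold cutoff (0.826% and 0.851%). AIC selection gave 32 in TE at any fold (53.6%), and an FDR of 0.01 gave 2 in TE (1.81%) and 4 at any fold (4.72%). Without ZT4, ZT10 and ZT12, the timepoints at which RNA replicates correlated least, 19 passed in RPF at any fold (20.6%). Without ZT18, ZT20 and ZT22, 0 were called in TE (2.58%) and 4 at any fold (5.20%), and the RNA peak of Hnrnph3 moved to ZT0.48 (fold 1.15).

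Leaving out pools gave 5 to 9 in RNA (8 to 35 at any fold), 1 to 7 in RPF (2 to 32), 0 to 6 in TE (0 to 15), and TE levels of 15 to 17 above and 8 below. The low ends came from leaving out all replicate 1 or all replicate 2 pools, which leaves 12 libraries per assay. Without replicate 1 the shares of all genes fell as well. They were 6.09% in RNA, 3.12% in RPF and 0% in TE (10.1%, 3.88% and 0% at any fold). Without replicate 2, 6 members were called in RNA, 6 in RPF and 0 in TE. The RNA share of all genes then rose to 12.1%, from 10.2% in the main fit, and fell to 34.9% at any fold. The RPF and TE shares were 7.19% and 0.0169%. Leaving out single pools gave 7 to 9, 6 to 7 and 3 to 6 called. Among the 28 single folds, 1009 of 1090 values kept their side of the cutoffs, 72 calls were lost, 8 were gained and 1 moved its peak by over 6 h. The replicate numbers did not pair the pools (mean correlation of replicate differences 0.029 in RNA, 0.020 in RPF and 0.036 in TE over 66 pairs of timepoints, with 13, 10 and 12 pairs over 0.1 and a highest value of 0.480, 0.185 and 0.338). With the replicate number as a block, 8 members were called in RNA, 7 in RPF and 4 in TE, 32, 30 and 13 at any fold, with TE levels of 17 above and 8 below. TE not centred gave 13 above (17.0%). The fewest reads behind a member value were 7, in Rbm12b1 and Rbm38.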

Other observations

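Hnrnpul1 and Hnrnpul2, related genes with RNA means of 64.3 and 83.7 RPKM, differed in TE level (0.453 and 0.999 relative to the median gene) while both had an RNA peak in the light phase (ZT5.6 and ZT6.4, folds 1.25 and 1.32). Rbm38, whose product regulates mRNA stability, had among the largest fitted folds of the members not called, 1.49 in RNA and 1.64 in RPF (FDR 0.0979 and 0.172), at a median of 17.5 and 22 reads per library. Hnrnph1 had an RNA fold of 1.05 (FDR 0.905) and an RPF fold of 1.29 (FDR 0.00145, peak ZT19.5), and Rbm34 one of 1.14 (FDR 0.254) and 1.3 (FDR 0.000350, peak ZT6.9), but the TE test, which compares the curves, gave FDRs of 0.223 and 0.246.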
